A study of Homo sapiens with 12 samples.

Results

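HCT116 is an epithelial cell line established from a human colon carcinoma. Its cultures were mock transfected or given siRNAs against NFYA, and their polyadenylated RNA was sequenced. The genes described here are those on which mock stood to siControl as siTotal2 stood to siTotal1, a split of the libraries that sets mock and siTotal2 on one side and siControl and siTotal1 on the other. A gene was a member when edgeR's quasi-likelihood test called it in both pairs, at an adjusted p under 0.05, with the same sign. Of 63677 genes listed, 17730 passed a filter on low counts, and 2792 of these (15.7%) were members. Of the members, 1253 (7.07% of tested genes) were higher in mock and siTotal2, and 1539 (8.68%) were lower there. The split is not one that the study set up. It was taken up because it called more genes than the split by NFYA siRNA in the same 8 libraries, 8392 (47.3%) against 6893 (38.9%). The members were thus chosen by their levels in these 4 groups, so their differences within the pairs are given below as a description, without p-values.

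The 6 groups held 2 libraries each, made from separate cultures of this 1 cell line. Mock cultures went through transfection without an siRNA, and siControl cultures received a non-targeting siRNA. The siTotal1 and siTotal2 cultures received 1 each of a pair of siRNAs aimed at every NFYA transcript. The siLong1 and siLong2 cultures, which had no part in choosing the members, received siRNAs aimed at the NFYA transcripts whose 3′ UTR is longest. Each well had been seeded with 25000 cells, the siRNA concentration was 62.5 nM, and harvest followed 72 h later.

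NF-Y is a transcription factor made of the products of NFYA, NFYB and NFYC, and it binds CCAAT boxes in promoters through NFYA. An siRNA can also lower transcripts other than its target when they match its seed, and the lipid used for transfection can itself change gene expression, so a mock and a non-targeting control are commonly run side by side. Several of the gene groups described below answer to signals at the cell surface and to cell density. YAP is a coactivator that enters the nucleus in spread, sparsely grown cells and acts through TEAD factors, and ERK is the last kinase of the growth factor cascade.

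The second pair compares cultures that differ in which of the siTotal sequences they received. Both sense strands are shown because they are the only labelled difference between siTotal1 and siTotal2; the labels list them without saying which is number 1.
siTotal, first listed: acuagaggcagaagggaaa
siTotal, second listed: uggugaagguggacgauuu

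Total counts were 35604197 to 49746637 reads per library. NFYA, the targeted gene, was at 55.2 and 59.1 CPM (counts scaled to library size) in mock, 57.4 and 57.5 in siControl, 47.9 and 46.8 in siTotal1 and 46 and 46.2 in siTotal2. The siTotal libraries were all lower than the mock and siControl libraries (log2 difference -0.29 ± 0.04 SE, adjusted p = 1.3e-08, edgeR quasi-likelihood test). NFYA was at 47.7 and 46.5 CPM in siLong1 but at 69.7 and 70.1 in the libraries labelled siLong2, above every other library; the gene-level counts do not separate its isoforms. The epithelial markers EPCAM, CDH1, KRT8, KRT18 and KRT19 were well detected in all 12 libraries, with EPCAM at 164 to 301 CPM, whereas CDX1, VIL1, CDH17 and LGALS4 did not pass the filter. Over genes with a log2 CPM of at least 1, the root mean square log2 difference was 0.243 between mock and siTotal2, the smallest of the 15 pairs of groups. It was 0.347 between mock and siControl, 0.369 between siTotal1 and siTotal2, and 0.122 to 0.166 between replicates of 1 group.

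Some measures of the libraries differed between the sides, but not alike in both pairs. Reads of 3 fibroblast genes were present in mock replicate 1 (158 of COL1A2, 97 of COL3A1, 106 of DCN) and in siTotal2 (43 and 16, 40 and 22, 92 and 51). The siControl and siTotal1 libraries held at most 3 reads of each, and mock replicate 2 held 0 of all 3; none of these genes was a member. Libraries labelled siLong2 also differed, with 39 DCN reads in replicate 2 and 0 in replicate 1. Of 10 fibroblast markers 6 were tested. The summed level of all 10 was 31.6 to 52.5 CPM in mock and siTotal2 against 30.5 to 39.2 CPM in siControl and siTotal1. COL1A1 made up most of this sum, at 25.8 to 42.7 CPM over the 12 libraries. The cytosolic ribosomal protein genes took 6.15% to 6.66% of reads in mock and siTotal2 and 6.69% to 7.23% in siControl and siTotal1. Most of that gap lay in the second pair (7.23% and 6.91% in siTotal1, 6.40% and 6.15% in siTotal2). In the first pair the shares were 6.65% and 6.66% in mock and 6.78% and 6.69% in siControl. The part of these measures in the results was not tested. Without mock replicate 1, 2313 genes met the rule, of which 2234 were among the 2792.

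Of all tested genes, 39.8% were called in mock against siControl and 43.9% in siTotal2 against siTotal1. Among the members, 399 (2.25% of tested genes) differed at least 1.5-fold in both pairs, 266 of them higher and 133 lower in mock and siTotal2, and 120 (0.677%) differed at least 2-fold in both. The median log2 difference of the split was 0.45 for the higher and -0.32 for the lower members. The 4 libraries of one side did not overlap the 4 of the other in 1010 (80.6%) of the higher and 1278 (83.0%) of the lower members, a separation that the rule itself favours. Of all tested genes 9.69% were higher and 11.3% lower without overlap. When the 2 pair differences were set against each other by the same test and threshold, 868 members (31.1%) were called, and 36.5% of all tested genes. The rule, which asks for equal signs, bears on this share, so nothing is read from it. A gene not called there is not shown to have differed equally in both pairs. The scatter of the pair differences shows the members in the 2 quadrants of equal sign.

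**Figure D1:**
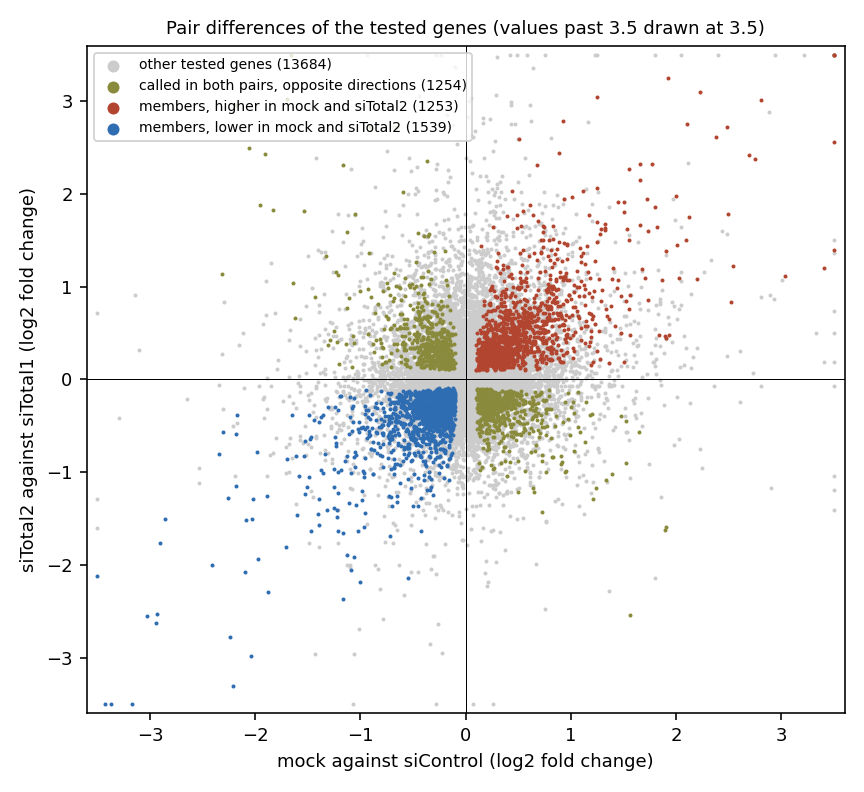
Log2 fold change of each of 17730 tested genes in mock against siControl (horizontal axis) and in siTotal2 against siTotal1 (vertical axis). The 1253 members higher in mock and siTotal2 are red, the 1539 lower are blue, and the 1254 genes called in both pairs with opposite directions are olive. The quadrants of equal sign hold the members because the rule put them there.

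SUSD2 (chr22:24181259-24189110 on GRCh38, plus strand), which encodes a cell surface protein with a sushi domain, led the members that were higher in mock and siTotal2. It was at 22.1 and 23.5 CPM in mock and 3.71 and 3.34 in siControl, and at 59.9 and 60.6 in siTotal2 and 10.6 and 11.9 in siTotal1. Both pairs therefore differed by a similar factor (log2 difference 2.69 ± 0.10 SE and 2.42 ± 0.07), while all siTotal levels were above those of their counterparts. In terms of level, siTotal1 lay between siControl and mock and the 4 libraries of each side did not overlap.

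INPP5D, which encodes the phosphatase SHIP1 that removes a phosphate from the phosphoinositide made by PI3-kinase, was at 2.48 and 3.35 CPM in mock and 3.93 and 4.14 in siTotal2. In siControl it was at 1.18 and 0.78 CPM and in siTotal1 at 1.50 and 1.34, so the sides did not overlap (log2 differences 1.55 ± 0.20 and 1.50 ± 0.19). SESN3, a sestrin that restrains mTORC1 and is a known FOXO target, was at 9.08 and 10.1 CPM in mock, 13 and 13.3 in siTotal2, 2.65 and 3.31 in siControl and 5.66 and 5.83 in siTotal1. DEPTOR, which binds and inhibits mTOR, had log2 differences of 1.10 ± 0.19 and 1.05 ± 0.21 in the first and the second pair.

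Other leading members on that side had varied roles. BTC, the EGF receptor ligand betacellulin, was at 3.13 and 3.66 CPM in mock and 1.60 and 1.54 in siControl, and at 6.07 and 5.85 in siTotal2 and 1.39 and 1.51 in siTotal1. Its difference was larger in the second pair (2.04 ± 0.16) than in the first (1.11 ± 0.17). PRF1, the pore-forming protein perforin, was at 4.66 and 5.46 CPM in mock, 1.37 and 1.32 in siControl, 11.2 and 12.9 in siTotal2 and 4.16 and 5.04 in siTotal1, so that siTotal1 overlapped mock. PLA2G7, which encodes a phospholipase that hydrolyses platelet-activating factor, SRGAP3, a GTPase-activating protein, SECTM1 and ADSS1, the muscle-type adenylosuccinate synthase, were each at least 2-fold higher in mock than siControl and in siTotal2 than siTotal1. GFY and DOC2A were the other 2 of the 12 named on this side.

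The leading member on the lower side was IL31RA (chr5:55851379-55922853, plus strand), which encodes a subunit of the receptor for interleukin 31. Its level was 0.65 and 0.79 CPM in mock and 0.94 and 0.69 in siTotal2, against 5.39 and 5.71 in siControl and 5.28 and 4.82 in siTotal1. All 4 low libraries were thus far below all 4 high ones, with near equal levels on each side (log2 differences -2.94 ± 0.18 and -2.63 ± 0.19).

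SLC2A3, which encodes the glucose transporter GLUT3, was at 6.41 and 9.34 CPM in mock and 13.9 and 14.7 in siTotal2, against 29.2 and 35 in siControl and 121 and 104 in siTotal1. Its sides did not overlap, but siTotal1 stood well above siControl (log2 differences -2.04 ± 0.18 and -2.98 ± 0.16). Reads of SLC2A3 can be shared with its near-identical neighbour SLC2A14, so these levels are uncertain. P3H2, a prolyl hydroxylase that modifies collagen, was at 2.42 and 2.38 CPM in mock and 9.12 and 8.59 in siControl, and at 3.46 and 3.01 in siTotal2 and 17 and 14.7 in siTotal1.

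Keratins and an actin-binding protein stood among the lower members. KRT7, a keratin of simple epithelia that colon normally has little of, was at 13.3 and 13.7 CPM in mock, 9.94 and 8.78 in siTotal2, 40.9 and 37.3 in siControl and 22.9 and 21.2 in siTotal1. KRT80 had log2 differences of -1.17 ± 0.09 and -1.66 ± 0.10. MYPN, the sarcomere protein myopalladin, was at 0.83 and 1.23 CPM in mock, 0.55 and 0.56 in siTotal2, 7.75 and 7.49 in siControl and 2.03 and 1.77 in siTotal1, so siControl stood far above the other 3 groups. MGLL, the lipase that degrades the endocannabinoid 2-arachidonoylglycerol, SUN3, a nuclear envelope protein, and C1orf116 differed by -1.32, -1.39 and -2.02 in the first pair and by -1.41, -1.29 and -1.29 in the second, all on the log2 scale.

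**Figure D2:**
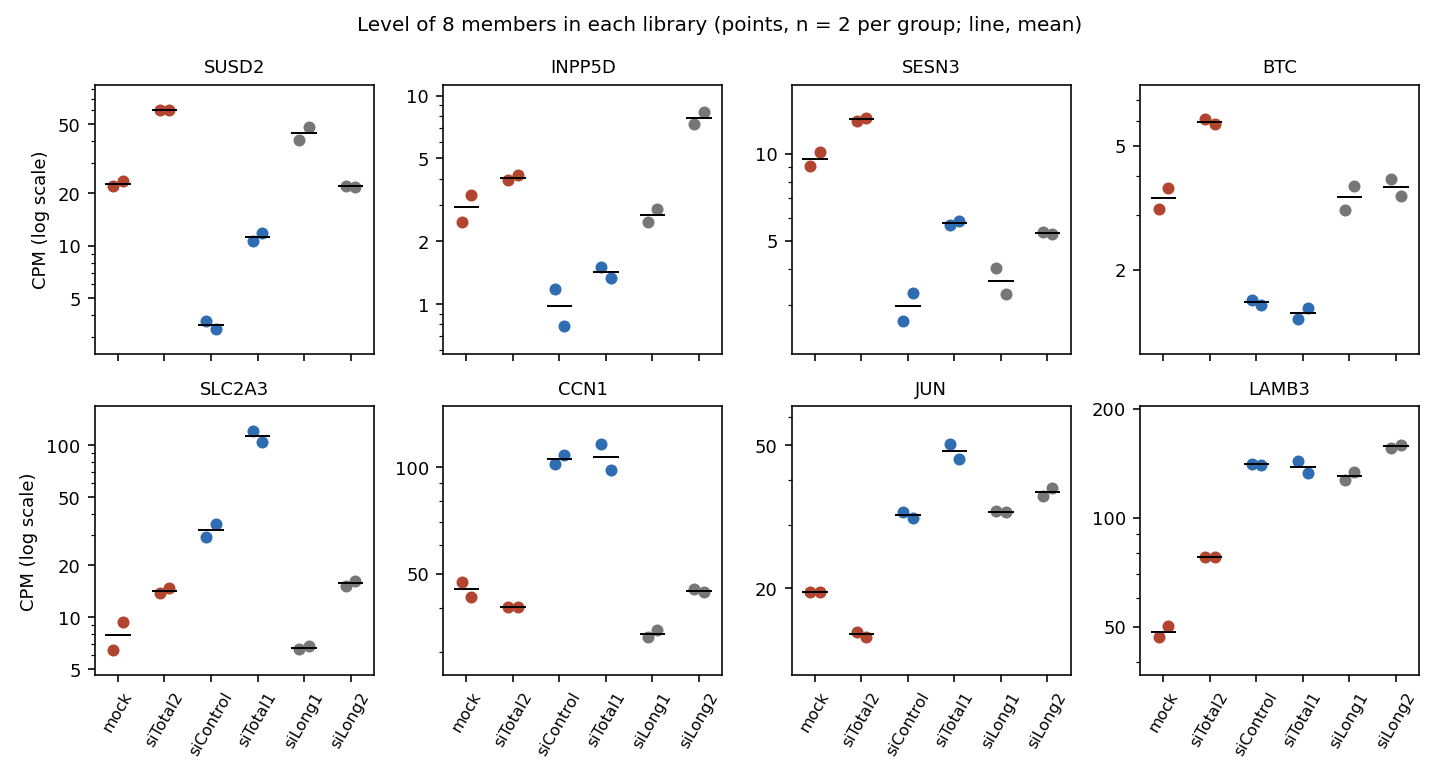
CPM on a log axis in each library for 8 members, with 2 points per group and a line at the mean; red groups are mock and siTotal2, blue groups are siControl and siTotal1, and grey groups are siLong1 and siLong2. SUSD2, INPP5D, SESN3 and BTC are higher in the red groups, and SLC2A3, CCN1, JUN and LAMB3 are lower there, while the grey groups lie on either side.

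Targets of YAP and TEAD were the list with the largest share of members among the lists of at least 10 tested genes. Of 22 tested, 11 (50%) were members, all lower in mock and siTotal2, against 8.68% of all tested genes. That baseline is not matched for expression. In the second highest quintile of expression 14.9% of genes were lower members, and the share was larger still in the highest. The shares of this and the later lists were not compared with genes of like expression, so smaller excesses over all tested genes may reflect expression level. The 11 were CCN1, CCN2, AMOTL2, AJUBA, AXL, LATS2, NT5E, CRIM1, ARHGEF17, PTPN14 and WWC1. The median log2 difference of the 22 was -0.36 in mock against siControl and -0.74 in siTotal2 against siTotal1, where the medians of all tested genes were 0.0069 and -0.0050. The count of 11 lower and 0 higher was the same with 2 other scalings of the libraries and in DESeq2, and it was 12 and 0 without mock replicate 1.

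CCN1, a secreted matricellular protein and a gene much used to read out YAP activity, was at 47.3 and 43 CPM in mock and 40.3 and 40.3 in siTotal2, against 102 and 108 in siControl and 116 and 97.8 in siTotal1. Its levels made 2 tight sets with no overlap (log2 differences -1.22 ± 0.07 and -1.41 ± 0.07). CCN2, its close relative also known as CTGF, was at 6.11 and 5.80 CPM in mock, 6.12 and 5.18 in siTotal2, 8.28 and 9.21 in siControl and 26.4 and 23.4 in siTotal1. For CCN2, siTotal1 stood apart above the other 3 groups.

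Genes that restrain YAP and are its own targets were also lower. AMOTL2, an angiomotin that holds YAP at junctions, was at 59.1 and 56.8 CPM in mock and 67.1 and 64.6 in siTotal2, against 111 and 103 in siControl and 142 and 124 in siTotal1. LATS2, the kinase that phosphorylates YAP, was at 21.8 and 22.8 CPM in mock, 19.7 and 20.7 in siTotal2, 36.2 and 36.1 in siControl and 52.9 and 51.2 in siTotal1. The 2 pair differences of LATS2 were -0.70 ± 0.06 and -1.37 ± 0.06 on the log2 scale, and no library of one side reached the other. CRIM1, a transmembrane protein that binds BMPs, was at 60.4 to 65.3 CPM in the 4 libraries of mock and siTotal2, at 97.1 and 100.0 in siControl and at 166 and 154 in siTotal1. The receptor tyrosine kinase AXL differed by -0.34 ± 0.05 and -1.19 ± 0.05. Not all of the list moved in this way, and TGFB2, MYOF and GADD45A were called in both pairs with opposite signs.

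**Figure D3:**
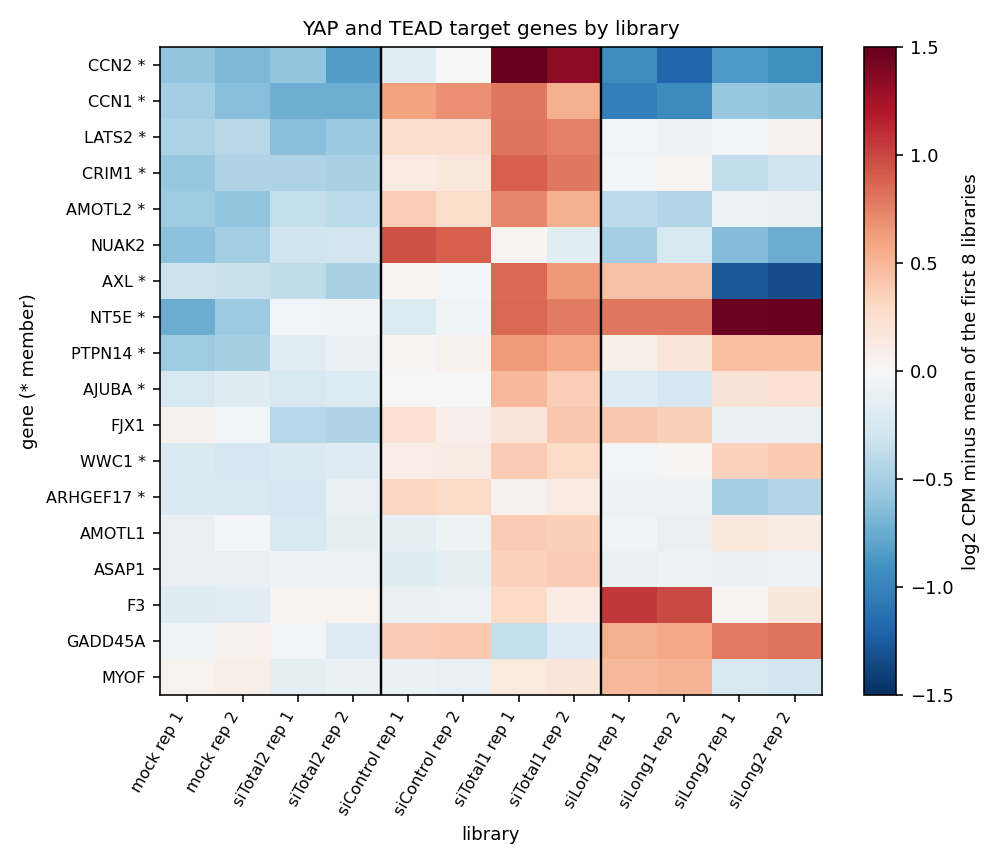
Log2 CPM of 18 YAP and TEAD targets with an average log2 CPM of at least 1 in the 12 libraries (columns), less the mean of the first 8; stars mark members and lines part the mock and siTotal2, siControl and siTotal1, and siLong libraries. The starred genes other than NT5E are lower in all 4 columns at the left than in the next 4, and siTotal1 is the highest of these 4 groups for most.

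The 300 bases around the RefSeq start site (250 before, 50 after, GRCh38.p14) were searched for GGAATG, the core word of TEAD sites, on both strands. A window was found for 8 of the 11 YAP and TEAD members, and 3 of the 8 (CCN2, LATS2 and PTPN14) held the word, which is in 11.1% of the 11498 tested genes with a window. The word was in 11.9% of 1217 lower members and 9.88% of 972 higher ones. Of the 12 leading lower genes only 4 had a window, of which 3 held this word and 3 held CCAAT. Of the 12 leading higher genes 9 had a window, of which 2 held this word and 2 held CCAAT. Nothing is read from counts this small. The sites of CCN2 and PTPN14, and those of MYPN and C1orf116 among the 12 leading lower genes, are printed to show the word in place, in capitals, read on the strand of the gene; CATTCC is the same word on the other strand.
CCN2, chr6:131951530-131951547, minus strand: gacggaGGAATGctgagt
CCN2, chr6:131951456-131951473, minus strand: atgcgaGGAATGtccctg
PTPN14, chr1:214551791-214551808, minus strand: gggccgCATTCCtccccg
MYPN, chr10:68109429-68109446, plus strand: tcaggtGGAATGtttcac
C1orf116, chr1:207032786-207032803, minus strand: acagctGGAATGagaggt
Further matches in these windows, 1 in CCN2, 1 in MYPN and 2 in C1orf116, are not printed. The CCN2 sites shown lie 169 and 95 bases before the start site. A match of letters is a description and not a binding site. The AP-1 word TGANTCA was in 6.57% of the windows of lower members, 3.91% of those of higher members and 4.71% of all tested ones. The CCAAT word was in 34.5%, 39.2% and 36.5% of the same 3 sets.

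Of 23 outputs and feedback genes of ERK signalling, 7 (30.4%) were lower members and 1 (4.35%) was higher, against 8.68% and 7.07% of all tested genes. The median split difference of the whole list was -0.03 on the log2 scale. DUSP5, a nuclear phosphatase that inactivates ERK, was at 109 and 109 CPM in mock and 104 and 103 in siTotal2, against 276 and 276 in siControl and 191 and 171 in siTotal1. The low side of DUSP5 was the same in both pairs and its high side was not (log2 differences -1.34 ± 0.04 and -0.81 ± 0.04). HBEGF, a ligand of the EGF receptor, was at 10.1 to 11.4 CPM in the 4 low libraries, 19.6 and 22.1 in siControl and 15.9 and 16.1 in siTotal1. EPHA2, an ephrin receptor, SPRED1 and SPRED2, which block RAF activation, FOSL1, an AP-1 subunit, and CCND1, cyclin D1, were the other lower members. DUSP6, the cytoplasmic ERK phosphatase, went the other way (0.81 and 0.31), and 5 genes of the list were called in opposite directions.

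Of 24 immediate early and serum response genes 8 (33.3%) were lower members and 3 (12.5%) were higher, against 8.68% and 7.07% of all tested genes. JUN, the main AP-1 subunit, was at 19.5 and 19.5 CPM in mock and 15.1 and 14.6 in siTotal2, against 32.6 and 31.3 in siControl and 50.2 and 45.8 in siTotal1. ATF3, a stress-induced repressor, was at 17.8 and 18.5 CPM in mock and 67.7 and 76.2 in siControl, and at 23.3 and 19.8 in siTotal2 and 38.9 and 35 in siTotal1. JUN differed more in the second pair (-1.69 ± 0.06 against -0.71 ± 0.06) and ATF3 more in the first (-1.98 ± 0.07 against -0.78 ± 0.07). KLF6, a zinc finger factor, differed alike in both (-0.70 ± 0.04 and -0.61 ± 0.04). The 3 higher members were FOSB, BTG2 and ACTA2, the last of which is also one of the fibroblast markers.

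Among 31 mesenchymal and matrix genes 6 (19.4%) were lower and 3 (9.68%) were higher, against 8.68% and 7.07% of all tested genes. LAMB3 encodes a chain of a laminin, the basement membrane protein to which epithelia attach. LAMB3 was at 46.9 and 50.1 CPM in mock, 78 and 78 in siTotal2, 141 and 140.0 in siControl and 143 and 133 in siTotal1. Its sides did not overlap, and the difference was larger in the first pair (log2 differences -1.54 ± 0.05 and -0.82 ± 0.04). THBS1, ITGA5 and P3H2 were other lower members, and TIMP3, COL6A1 and MMP14 the higher ones.

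Of 15 epithelial genes 3 (20.0%) were lower and 1 (6.67%) was higher, against 8.68% and 7.07% of all tested genes. A further 5 were called in opposite directions. TJP1, the tight junction scaffold ZO-1, was at 169 and 177 CPM in mock and 156 and 162 in siTotal2, against 286 and 288 in siControl and 249 and 228 in siTotal1. OCLN and CLDN4, other tight junction proteins, were lower mainly in the first pair (-1.10 and -0.80) and by less in the second (-0.19 and -0.12), where some alternatives ended the call of both. With upper-quartile scaling the list had 2 higher and 1 lower members. CLDN3 was higher (0.69 ± 0.17 and 0.76 ± 0.16).

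In the TGF-beta list (14 tested) 3 (21.4%) were lower, among them SKIL and SMURF1, and TGFBR1 and ID2 (14.3%) were higher. Of all tested genes 8.68% were lower and 7.07% higher. In the NF-kB list (16 tested) 3 (18.8%) were lower, among them the subunit gene NFKB2 and BIRC3, and SOD2 (6.25%) was higher. BIRC3, a ubiquitin ligase that inhibits apoptosis and is an NF-kB target, was at 6.25 and 5.63 CPM in mock and 7.09 and 6.56 in siTotal2, against 7.99 and 8.84 in siControl and 17.4 and 17.9 in siTotal1.

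On the higher side, the list labelled Wnt feedback genes had the largest share among the lists of at least 10 tested genes. Of its genes 5 of 14 (35.7%) were higher members and 0 lower, against 7.07% of all tested genes. The higher count was 4 in DESeq2 and 7 with upper-quartile scaling. Not all of the list moved in this way, with 8 genes called higher in the split and 4 called lower. The median log2 difference of the 14 was 0.416 in the first pair and 0.125 in the second. Besides genes that limit Wnt signalling, the list holds other genes of the pathway, among them EPHB2 and TCF7. AXIN2, the scaffold of the complex that destroys beta-catenin, was at 19.9 and 21.1 CPM in mock and 5.31 and 5.44 in siControl, and at 25.6 and 26.6 in siTotal2 and 17.6 and 20.0 in siTotal1. Its difference was thus mostly that siControl stood low, and siTotal1 overlapped mock (log2 differences 1.93 ± 0.09 and 0.48 ± 0.07). EPHB2, an ephrin receptor of the crypt base, was at 34.6 and 38.5 CPM in mock, 38 and 39 in siTotal2, 22.8 and 25.9 in siControl and 25.3 and 26.3 in siTotal1. EPHB2 had the same difference in both pairs (0.58 ± 0.07 each). NOTUM, which removes the lipid from Wnt ligands, differed by 0.52 ± 0.10 and 0.69 ± 0.10, and the transcription factor TCF7 by 0.39 ± 0.06 and 0.29 ± 0.06. The zinc finger factor SP5 was the remaining one.

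Of 16 MHC class I presentation genes 5 were higher (31.2%) and 0 lower, against 7.07% and 8.68% of all tested genes. The higher count was 4 in DESeq2, with the replicate block and without mock replicate 1, and 6 with upper-quartile scaling. The list differed mainly in the second pair, with a median log2 difference of 0.40 and 13 genes called higher. In the first pair the median was 0.079, with 6 called higher and 1 lower. TAP1, a subunit of the peptide transporter, was at 47.8 and 49.7 CPM in mock, 59.4 and 55.3 in siTotal2, 42.6 and 43 in siControl and 41.3 and 41 in siTotal1. PSMB9, an immunoproteasome subunit encoded beside it, was at 2.88 and 3.20 CPM in mock and 2.08 and 2.18 in siControl, and at 7.56 and 6.92 in siTotal2 and 1.03 and 1.37 in siTotal1, so siTotal2 was the one high group. TAP1 and PSMB9 overlap in the genome on opposite strands, and it is not known here whether counting used the strand. HLA-E, NLRC5 and PDIA3 were the other 3. Of 31 interferon response genes only IFI6, IFIH1 and BST2 (9.68%) were members, all higher, and 6 were called in opposite directions. IFI6 was at 6.21 and 6.38 CPM in mock and 12.2 and 10.8 in siTotal2, against 3.36 and 3.18 in siControl and 4.97 and 5.6 in siTotal1.

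Of all tested genes 7.07% were higher members and 8.68% lower. Of 43 G1/S and DNA replication genes 8 were higher (18.6%) and 1 was lower (2.33%), and of 43 G2/M genes 6 (14%) and 0. With upper-quartile scaling the higher counts were 13 and 13. RFC5, a clamp loader subunit, was at 151 and 148 CPM in mock, 145 and 137 in siTotal2, 105 and 111 in siControl and 114 and 111 in siTotal1. MCM4, a subunit of the replicative helicase, differed by 0.40 ± 0.04 and 0.20 ± 0.04, and POLA1, the catalytic subunit of DNA polymerase alpha, by 0.31 ± 0.05 and 0.34 ± 0.05. E2F8, a repressor of E2F targets, was the one lower member. Of 40 nuclear genes of the respiratory chain 9 were higher (22.5%) and 0 lower. NDUFB10, a complex I subunit, was at 140.0 and 150.0 CPM in mock, 154 and 149 in siTotal2, 113 and 112 in siControl and 111 and 108 in siTotal1, and UQCRC1 of complex III differed by 0.26 ± 0.04 and 0.25 ± 0.04. None of the 15 mitochondrially encoded RNAs was a member in edgeR or in DESeq2.

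In the ATF4 list 9 of 29 (31.0%) were lower and 3 (10.3%) were higher, against 8.68% and 7.07% of all tested genes. The median split difference of the list was -0.044 on the log2 scale, with 9 genes called higher in the split and 14 lower. CHAC1, which degrades glutathione and is induced by ATF4, was at 8.43 and 7.97 CPM in mock and 5.76 and 4.88 in siTotal2, against 15.6 and 12.7 in siControl and 10.6 and 9.92 in siTotal1. Of 19 genes of the endoplasmic reticulum chaperone and unfolded protein list 7 were lower (36.8%) and 2, PDIA4 and PDIA6, were higher (10.5%). The list as a whole had a median split difference of 0.0057, with 6 genes called higher in the split and 7 lower. DNAJB9, an ER co-chaperone induced by XBP1, was at 12.3 and 14.1 CPM in mock and 11.3 and 11.8 in siTotal2, against 18.1 and 17.4 in siControl and 21 and 19.8 in siTotal1. Without mock replicate 1 that list had 4 lower members.

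Of 23 NRF2 targets 5 (21.7%) were lower and 1 (4.35%) was higher, against 8.68% and 7.07% of all tested genes. TXNRD1, thioredoxin reductase, was at 610.0 and 638 CPM in mock, 501 and 494 in siTotal2, 1090 and 1110 in siControl and 742 and 678 in siTotal1. NQO1, the quinone reductase often used to read out NRF2, was the higher one (0.90 ± 0.04 and 0.32 ± 0.04). Of 24 cholesterol synthesis genes 5 (20.8%) were lower, 1 (4.17%) was higher and 6 were called in opposite directions. With upper-quartile scaling 3 of them were lower and 2 higher. Of 43 cytosolic ribosomal protein genes 5 (11.6%) were lower members and 0 higher, and without mock replicate 1 none was a member.

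The p53 targets were split, with 6 of 28 higher and 6 lower (21.4% each). Of all tested genes 7.07% were higher and 8.68% lower. TP53INP1, which promotes p53-dependent death and autophagy, was at 23.3 and 25.5 CPM in mock, 7.70 and 8.94 in siControl, 41.9 and 45.7 in siTotal2 and 25.7 and 26.1 in siTotal1. SESN2, a sestrin, went the other way, at 24 and 24.2 CPM in mock and 39 and 37.9 in siControl, and at 26.9 and 25.4 in siTotal2 and 33.5 and 34.2 in siTotal1. In the list of RNA interference genes 3 of 13 were members, 2 higher (15.4%) and 1 lower (7.69%). The lower share was near that of all tested genes. DICER1, the nuclease that makes microRNAs and processes long double-stranded RNA, was lower (-0.50 ± 0.05 and -0.58 ± 0.05), and TNRC6B and AGO4, partners in the silencing complex, were higher (0.63 and 0.47 in the first pair, 0.70 and 0.54 in the second). None of the 3 NF-Y subunit genes was a member in edgeR or in DESeq2: NFYA differed by -0.01 ± 0.05 and -0.04 ± 0.05, NFYB by 0.05 ± 0.06 and -0.15 ± 0.06, and NFYC by 0.06 ± 0.05 and -0.21 ± 0.05. The plot of members by list sets these counts beside the shares of all tested genes.

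**Figure D4:**
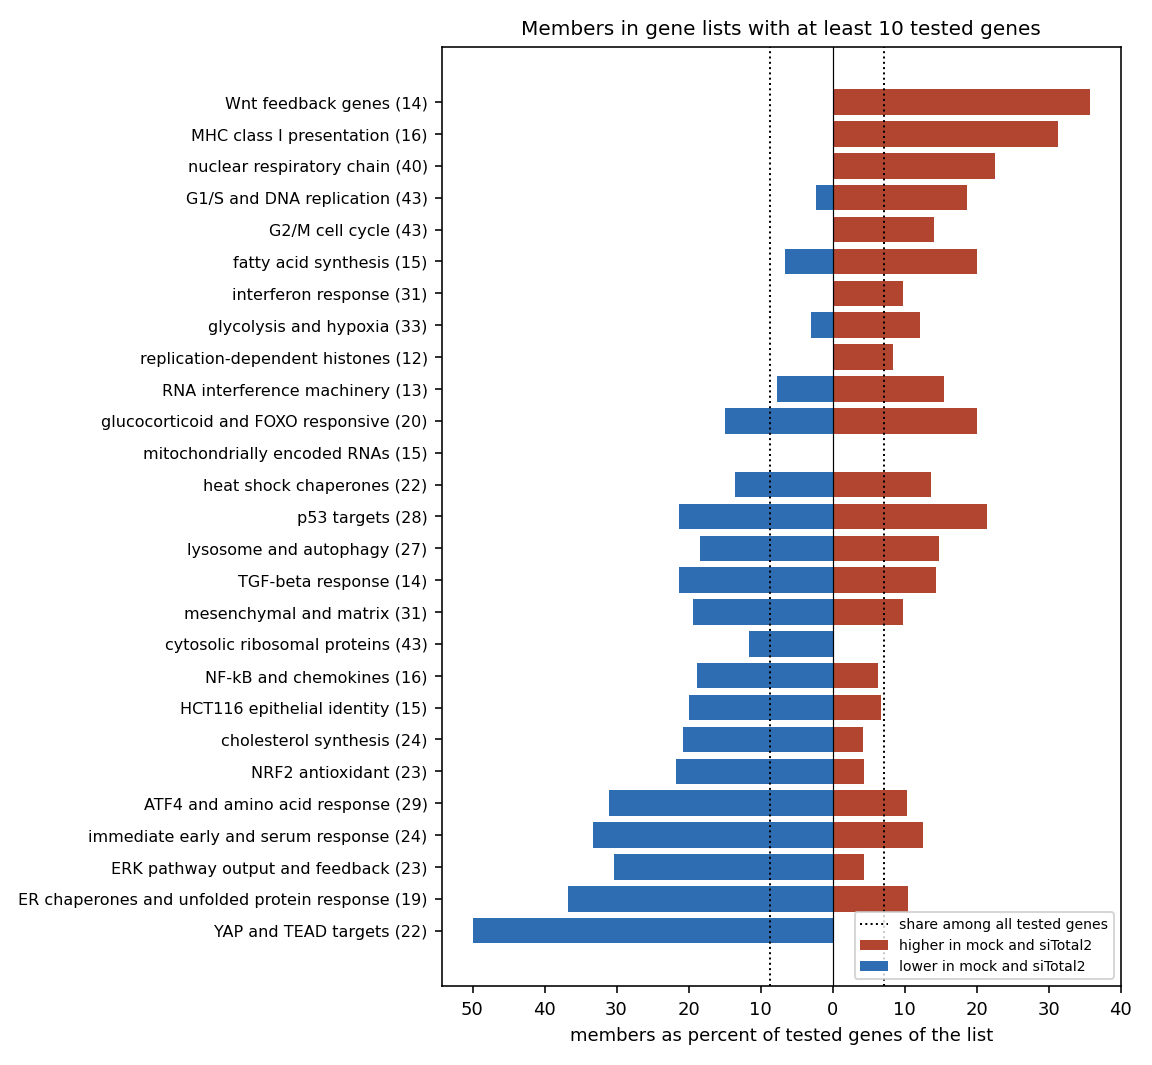
Members as a percent of the tested genes of each list (number tested in brackets), for lists of at least 10 tested genes; red bars to the right are higher and blue bars to the left lower in mock and siTotal2, and dotted lines mark 7.07% and 8.68%, the shares among all tested genes. YAP and TEAD targets reach 50% lower, and the list labelled Wnt feedback genes 35.7% higher. The dotted lines are not matched for the expression of each list.

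A further 1254 genes (7.07% of those tested) were called in both pairs with opposite signs, 690 higher in mock than siControl and 564 higher in siTotal2 than siTotal1. ITGA2, the collagen-binding integrin subunit, was at 61.8 and 67.9 CPM in mock and 151 and 152 in siControl, but at 83.2 and 86.2 in siTotal2 and 36.9 and 38.9 in siTotal1. ADGRF1, an adhesion G protein-coupled receptor, was at 69.1 and 72.2 CPM in mock and 36 and 39.1 in siControl, but at 45.9 and 46.8 in siTotal2 and 86.8 and 85.4 in siTotal1. At the threshold, PLEKHM1P1 and NOXA1 were the last 2 genes inside, with log2 differences of -0.24 and -0.30, and 0.87 and 0.70. LINC00963 (0.40 and 0.16) and NT5DC3 (0.13 and 0.16) were the first 2 outside.

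Members were more highly expressed than other genes, with a median log2 CPM of 5.28 against 3.85 for all tested genes, and 94.0% of them were protein coding, against 74.8%. Lower members had a median log2 CPM of 5.70 and higher members 4.47. The share of lower members was 0.649% in the lowest quintile of expression and 14.9% in the second highest, and it was larger still in the highest. The share of higher members was 1.18% in the lowest quintile and largest in the middle one, at 10.7%. The median GC content of the exons was 51.3% for higher members, 48.4% for lower members and 48.5% for all tested genes. In the quintile of genes with the highest GC content the median log2 difference of the split was 0.066, and 10.6% of those genes were higher members. The part of GC content and expression level in the split was not tested.

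The siLong libraries allow a test of the members outside the 8 libraries of the rule. In siLong2 against siLong1, edgeR's quasi-likelihood test called 9521 of the 17730 genes (53.7%), 27.0% higher and 26.7% lower. Of the 2792 members 1945 (69.7%) were called, 995 higher in the libraries labelled siLong2 and 950 lower. The higher members divided into 478 up and 409 down, and the lower members into 517 up and 541 down, so neither set moved in 1 direction. The 1254 genes called in opposite directions were called in 69.8% of cases. In the highest quintile of expression 76.6% of members and 70.8% of other genes were called, and in the next 71.6% and 69.0%, with wider gaps at low expression (59.0% and 40.4% in the second lowest quintile). Each gene has 1 estimate of its spread in the fit, which the choice of members and this test share, and the part of the spread in these shares was not tested. Across genes, Pearson's r between the split and siLong2 against siLong1 was 0.12 over members and 0.14 over all tested genes, and genes are not independent replicates. Without replicate 2 of siLong2, the one with DCN reads, 1706 members (61.1%) were called, against 43.6% of all genes.

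**Figure D5:**
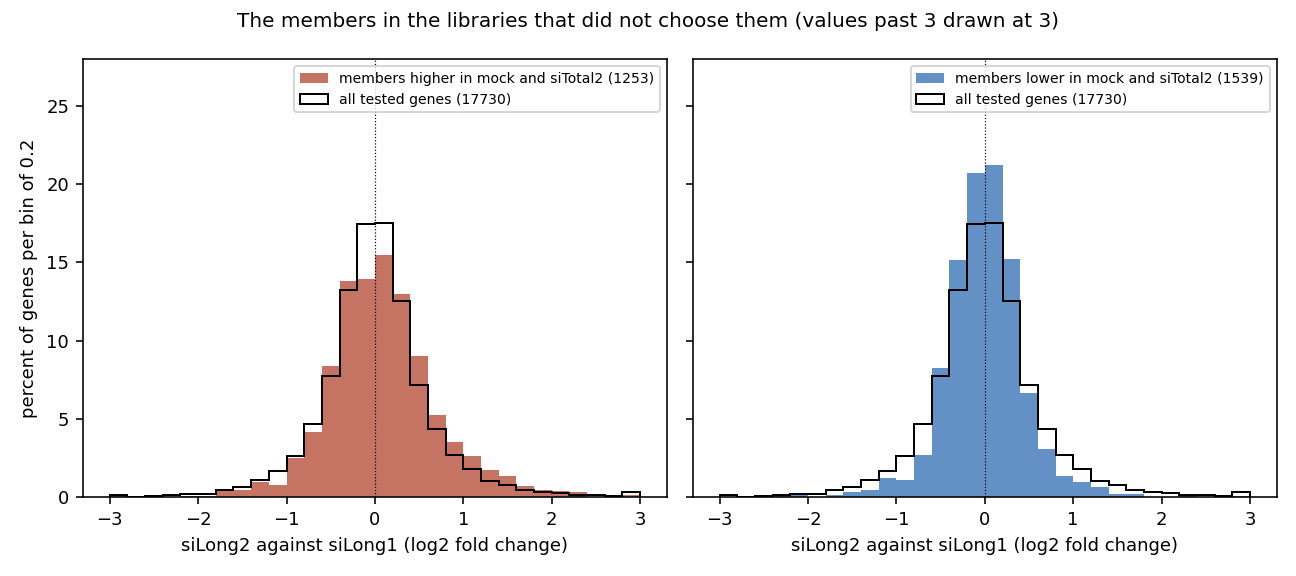
Distribution of the log2 fold change in siLong2 against siLong1 for the 1253 higher members (left, red) and the 1539 lower members (right, blue), each with all 17730 tested genes as a black outline, in percent of genes per bin of 0.2. Both sets of members are centred near 0, with medians of 0.053 and -0.0027.

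Single members took every course in this test. PAQR8, a membrane progesterone receptor, which was at 6.03 and 6.33 CPM in mock, 11.3 and 11.3 in siTotal2, 3.34 and 3.31 in siControl and 1.94 and 2.21 in siTotal1, was at 1.10 and 1.32 in siLong1 and at 8.27 and 7.98 in siLong2 (2.74 ± 0.15, adjusted p = 6.8e-18). INPP5D was higher in siLong2 than in siLong1, 7.32 and 8.35 CPM against 2.48 and 2.86 (1.55 ± 0.15, adjusted p = 8.3e-11). SUSD2 was lower in siLong2, 22.1 and 21.9 CPM against 40.5 and 48.1 (-1.01 ± 0.07, adjusted p = 3.2e-14).

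S100A4, a calcium-binding protein linked to cell motility, was at 102 and 116 CPM in mock and 17.6 and 20.2 in siControl, at 99 and 101 in siTotal2 and 53.4 and 58.4 in siTotal1, and was lower in siLong2 (51.2 and 52.7) than in siLong1 (179 and 182) (-1.80 ± 0.06, adjusted p = 4.3e-18). AXL fell from 140.0 and 140.0 CPM in siLong1 to 42.3 and 41 in siLong2 (-1.75 ± 0.06, adjusted p = 3.9e-22). TNFSF18, TRAPPC6A, CCDC92 and FAM81A were the other 4 members with the largest rises, of 2.03 to 2.37 on the log2 scale, and CEACAM19, WNK4 and DACT1 the other 3 with the largest falls. BTC and NDUFB10 did not pass the test (0.11 ± 0.15, adjusted p = 0.58, and 0.04 ± 0.04, adjusted p = 0.51).

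Of the 11 YAP and TEAD members 6 were higher and 3 lower in siLong2 than in siLong1, and CCN2 and LATS2 did not pass the test. CCN1 was at 33 and 34.6 CPM in siLong1 and 45.3 and 44.2 in siLong2 (0.41 ± 0.07, adjusted p = 7e-05), below or within the range of the mock and siTotal2 libraries. LATS2 was at 28.5 to 31.6 CPM in the 4 siLong libraries, between both sides of the split. LAMB3 was at 127 and 134 CPM in siLong1, which overlapped siControl and siTotal1, and at 156 and 159 in siLong2, above them. Against the mean of the 4 groups of the split, whose libraries these comparisons share, CCN1 was lower in siLong1 (-0.99 ± 0.06, adjusted p = 5.6e-12) and in siLong2 (-0.59 ± 0.06, adjusted p = 1.3e-08). The same comparisons gave LAMB3 as higher in both (0.49 ± 0.03, adjusted p = 6.7e-15, and 0.76 ± 0.03, adjusted p = 1.7e-20), where 56.8% and 53.9% of all tested genes were called. CCN1 and LAMB3, which were lower members alike, therefore differed in where the siLong libraries lay.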

How the data were processed

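The authors deposited whole-number read counts for each Ensembl gene, unnormalized, in 1 column for each of the 12 libraries; 0 columns were of other samples. Per the labels, libraries came from polyadenylated RNA with a stranded kit, and cultures were biological duplicates. The submitters' processing notes name STAR 2.4.0f1, featureCounts and hg19, while annotation and strand setting are not given in the sources used. Gene positions are from GENCODE 29 and promoter windows from RefSeq, both on GRCh38, matched by identifier or symbol.

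The filter was filterByExpr with a minimum count of 10 and a minimum total of 15. With TMM scaling, edgeR 4.0.16 under R 4.3.3 fitted a robust quasi-likelihood model of the 6 groups, which had 6 residual degrees of freedom and a common coefficient of variation of 3.57%. Contrasts of group means went through the quasi-likelihood F-test, with Benjamini-Hochberg adjustment over all 17730 genes, and a call needed an adjusted p under 0.05. The method was tested on simulated data. CPM are scaled by TMM, except for summed marker levels and the CPM given beside them, which are scaled by total reads. The error of a log2 difference is its size divided by the square root of its F statistic. It rests on 2 libraries per group and on a spread that the fit estimates from all 12 libraries.

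Members, gene lists and rules were chosen with earlier results of these data known. Named genes with an average log2 CPM of at least 1 were the 12 members each way with the largest smaller pair difference, up to 4 members of each list with at least 3, the 5 members each way that changed most in siLong2 against siLong1, 3 genes each way called in opposite directions, the NF-Y subunits, and 2 genes on each side of the threshold. CCN2 and other list members named only to account for a list were added after their values were seen, and a few genes named by the rule are left out. Replicate numbers did not pair the libraries (correlation of same-numbered deviations -0.085 to 0.099). Alternatives were other scalings, DESeq2 1.42.0, other filters, fewer libraries, a replicate block and stricter thresholds.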

Additional observations from a re-analysis of the deposited data

How the results depend on the processing

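The number of members was 2197 to 2836 under other scalings, DESeq2, other filters, the fit of 8 libraries and the replicate block (2815 members), 1927 at an adjusted p under 0.01, and 2253 to 2851 without each library in turn. Requiring at least 1.5-fold left 399 members, and 1638 genes in mock against siControl, 2105 in siTotal2 against siTotal1, 1475 in the split of 4 against 4 libraries, 852 in the split by NFYA siRNA, 3377 in siLong2 against siLong1, and 3005 and 2468 in siLong1 and siLong2 against the mean of the 4 groups. Wider readings of the rule gave 6711 genes (same sign, called in the split) and 10182 (same sign, no test). Upper-quartile scaling gave 2779 members, of which 2348 were among the 2792, and moved their split from 1253 higher and 1539 lower to 1684 and 1095, and that of siTotal2 against siTotal1 from 3651 and 4124 to 4653 and 3012, with medians of all genes at most 0.062 from 0. Without each library in turn the counts were 5578 to 7438 in mock against siControl, 6379 to 7843 in siTotal2 against siTotal1, 7564 to 8389 and 6083 to 6796 in the splits by mock with siTotal2 and by NFYA siRNA, 8028 to 9882 in siLong2 against siLong1, and 8063 to 10393 and 7668 to 9783 in siLong1 and siLong2 against the mean. The replicate block changed no count by over 1.5 times.

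Calls were followed in each alternative only for genes named by the rule. Of those printed here, some members lost a call in at least 1 alternative other than the stricter thresholds. These were OCLN, CLDN4, NFKB2, CCDC92, FAM81A, WNK4 and ELOVL5 in siTotal2 against siTotal1. In mock against siControl they were IFIH1, PSMB9, NLRC5, TNFSF18, TRAPPC6A and DACT1, and in both CEACAM19, PLEKHM1P1 and NOXA1. Some named members left out of the text also lost calls. Of all members, 78.0% were also members in DESeq2. CEACAM19 was at -0.14 in siTotal2 against siTotal1 without siTotal1 replicate 2. Among the named values, signs turned only for differences near 0. Without each library in turn, the log2 difference in siLong2 against siLong1 was -0.0023 to 0.252 for BTC, -0.139 to 0.0688 for IFIH1, -0.185 to 0.326 for PSMB9 and -0.0034 to 0.0942 for NDUFB10, and that of NFYA in mock against siControl was -0.0583 to 0.0361. With upper-quartile scaling NFYA was at 0.014 in mock against siControl and 0.029 in siTotal2 against siTotal1. The cause was not tested. With 2 libraries per group, leaving out 1 assumes that the lone library varies like the other groups.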

Other observations

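Of 33 glycolysis and hypoxia genes 4 were higher in mock and siTotal2 and 1, SLC2A3, was lower, and of 15 fatty acid synthesis genes 3 (ACLY, ELOVL5, FADS1) were higher and 1 (ELOVL1) lower. Of 20 glucocorticoid and FOXO responsive genes 4 were higher and 3 lower. Among the latter was IRS2, an adaptor of the insulin receptor, at 9.18 and 9.68 CPM in mock, 10.7 and 8.70 in siTotal2, 19.2 and 20.0 in siControl and 17.4 and 17.1 in siTotal1. Of 22 heat shock chaperones 3 were higher and 3 lower, of 27 lysosome and autophagy genes 4 and 5, of 9 intestinal differentiation genes 2 and 2, and of 6 metallothionein and zinc genes 1 and 0. With upper-quartile scaling the higher and lower counts were 7 and 1 for glycolysis and hypoxia, 4 and 1 for heat shock, 5 and 2 for lysosome and autophagy, 6 and 3 for the glucocorticoid and FOXO list, 3 and 1 for intestinal differentiation and 2 and 0 for metallothioneins, and without mock replicate 1 glycolysis and hypoxia had 6 and 1 and heat shock 3 and 0. Of all tested genes 15.7% were members, and nothing particular to these lists is read from their counts.

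Of 12 tested histone genes of the replication-dependent kind only H2AC11 was a member, and the 12 had a median log2 difference of -0.13 in mock against siControl and 1.34 in siTotal2 against siTotal1. These messages lack a poly(A) tail in dividing cells, and their share of reads was 0.0092% and 0.0096% in siTotal2 and 0.0030% to 0.0036% in mock, siControl and siTotal1. Of 4 neural markers tested SNAP25 and TUBB3 were higher members, and of 2 blood and 2 endothelial markers tested none was.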
